A study of Mus musculus with 24 samples.

Results

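Collagen, laminin and closely related extracellular matrix genes were followed in the gastrocnemius muscle of mice on 3 high-fat diets. The genes were taken by name from the annotation of the scanner files or its current symbol: every collagen chain, every laminin chain, both nidogens, Sparc, Fn1, Fbn1 and the small leucine-rich proteoglycans Dcn, Lum and Bgn. The array carried 62 such genes on 121 probes. Of these, 43 genes were bright enough for their changes to be compared, out of 10669 named genes that passed the same limit. No matrix gene passed an adjusted p of 0.05 in any comparison of diets, and the description below therefore rests on levels, on changes past an unadjusted p, and on how the genes varied together from mouse to mouse.

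The 24 arrays held 1 mouse each, with 8 mice in each of 3 groups. All were male C57BL/6N mice, adult by the labels and 3 months old at the start by the methods, kept 2 to a cage and fed for 8 weeks a corn oil-based diet with 35% lipid by weight (cHF). The cHF+F mice ate the same diet in which 15% of the lipids were replaced by a marine n-3 LC-PUFA concentrate (46% DHA and 14% EPA). The cHF+ROSI mice ate cHF with rosiglitazone, a thiazolidinedione that activates the nuclear receptor PPARγ, at 10 mg/kg diet. Before death all mice were fasted for 10 hours in the light phase and then re-fed Chow overnight, so none of the groups was sampled while eating its high-fat diet. Each mouse's RNA was labelled with Cy5 and hybridised against a common Cy3 pool, to which mice on a higher dose of rosiglitazone, not analysed here, had also contributed. Which mice shared a cage is not given in the sources used here, so mice of a group may not be fully independent.

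The interstitial matrix of muscle is built mainly by fibroblasts and consists of fibrils of type I and type III collagen, whose diameter is set by type V collagen and by the small leucine-rich proteoglycans. Each muscle fibre and each capillary is wrapped in a basement membrane, in which networks of laminin and type IV collagen are linked by nidogens. The laminin alpha 2 chain is the form that anchors mature muscle fibres, through dystroglycan and integrin alpha 7, and collagen VI joins the basement membrane to the interstitium. Loss of the laminin alpha 2 chain or of collagen VI causes inherited muscular dystrophies, and excess type I and III collagen is the substance of fibrosis.

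Values are log2 ratios of the mouse's signal to the pool, so 0 is the level of the pool and a difference of 1 is a doubling of RNA. They compare mice for 1 gene, not genes with each other. In whole muscle, fewer cells of a type and less RNA per cell cannot be told apart. The tissue label held: the 11 fast-fibre markers examined, such as Acta1, Ckm and Myh4, were well above background on all 24 arrays. Between 30.4 and 91.1% of an array's Cy5 spots were called well above background, with 30.4 to 55.1% on slides 1 to 3 and 50.3 to 91.1% on slides 4 to 8. The 91.1% was that of a single array, cHF+ROSI replicate 4, which had 83.3% in Cy3. The next highest Cy5 share was 61.3%, in cHF+F replicate 7. A pair of arrays stood apart in the matrix genes. On the array of cHF+ROSI replicate 7 the median of the 43 genes was -0.39, and on that of cHF+F replicate 5 it was 0.33. Values that depended most on either array are given with and without it.

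Promoters of 3 fibrillar collagens are shown first, because the fibrillar collagens had the highest median correlation among mice of the classes compared, and Col5a3 passed an unadjusted p. They are the 250 bases before the annotated first base, 5′ to 3′ on the gene's strand, from RefSeq on GRCm38.p6: chr6:4505368-4505617 (+) for Col1a2, chr1:45311288-45311537 (+) for Col3a1 and chr9:20815068-20815317 (-) for Col5a3. Capitals mark the CCAAT box, the TATA element TATAAA and the GC box GGGCGG, searched on both strands, so that a box on the opposite strand is printed as its reverse complement.
Col1a2: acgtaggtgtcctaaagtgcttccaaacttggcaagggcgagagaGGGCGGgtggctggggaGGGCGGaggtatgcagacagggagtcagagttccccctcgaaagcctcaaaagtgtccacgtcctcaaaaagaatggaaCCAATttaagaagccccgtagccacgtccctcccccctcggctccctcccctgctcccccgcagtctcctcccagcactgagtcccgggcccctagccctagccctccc
Col3a1: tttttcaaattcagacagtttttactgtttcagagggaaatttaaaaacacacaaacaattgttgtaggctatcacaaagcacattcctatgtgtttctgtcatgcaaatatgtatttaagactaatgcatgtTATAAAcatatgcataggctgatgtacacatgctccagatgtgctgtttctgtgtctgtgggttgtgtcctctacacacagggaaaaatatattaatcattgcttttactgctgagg
Col5a3: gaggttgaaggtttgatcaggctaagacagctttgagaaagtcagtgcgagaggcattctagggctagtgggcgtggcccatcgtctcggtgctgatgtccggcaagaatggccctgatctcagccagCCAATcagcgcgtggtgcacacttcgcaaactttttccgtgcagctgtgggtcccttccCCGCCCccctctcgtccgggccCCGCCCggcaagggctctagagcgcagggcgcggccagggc
Col1a2 and Col5a3 each held 1 CCAAT, beginning 109 and 122 bases before the start, and each held 2 copies of GGGCGG. Col3a1 held neither of these, and 1 TATAAA beginning 117 bases before the start. Over all 27025 promoters of the same length, 34.5% held CCAAT, 13% held TATAAA and 32.9% held GGGCGG. Of the 31 compared matrix genes whose promoter could be matched by symbol, 11, 3 and 19 held them. A match is a string of letters and not a measured site.

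Of the 62 genes, the 43 bright ones covered all matrix layers of muscle. They included 9 of 11 fibrillar collagens, 4 of 6 type IV chains, 4 of 5 collagen VI chains, 6 of 9 fibril-associated collagens and both endostatin collagens (Col15a1 and Col18a1). They also included 3 of 5 laminin alpha chains, 3 of 6 laminin beta and gamma chains, both nidogens, all 3 glycoproteins and all 3 small leucine-rich proteoglycans. The spots of 34 of the 43 genes were well above background on all 24 arrays, the least detected of them on 18, and none was saturated. The laminin chains that were bright enough (Lama2, Lama4, Lama5, Lamb1, Lamb2 and Lamc1) are those of the muscle, vascular and synaptic basement membranes.

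The 19 dim genes were compared no further. Among them were Col24a1, Col27a1, Col4a3, Col4a5, Col6a6, Col9a2, Col9a3, Col19a1, Col17a1, Col23a1, Col25a1, Col10a1, Col26a1, Col28a1, Lama1, Lama3, Lamb3 and Lamc3. Several are known from other tissues: Col10a1 from hypertrophic cartilage, Col9a2 and Col9a3 from cartilage, Col17a1, Lama3 and Lamb3 from epithelia such as skin. Their mean signal was 1.36 to 3.25 times background in Cy5 and 1.38 to 1.97 times in Cy3, so all 19 missed the limit of 2 in Cy3, 7 of them in Cy3 alone, and 8 of the 19 were well above background in Cy5 on at least 12 arrays. They are dim here and are not shown to be absent. Close to the limit in Cy3, Col12a1 and Col11a1 were just inside it, at 2.01 and 2.02 times background, and Col24a1 was just outside it, at 1.92.

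**Figure D1:**
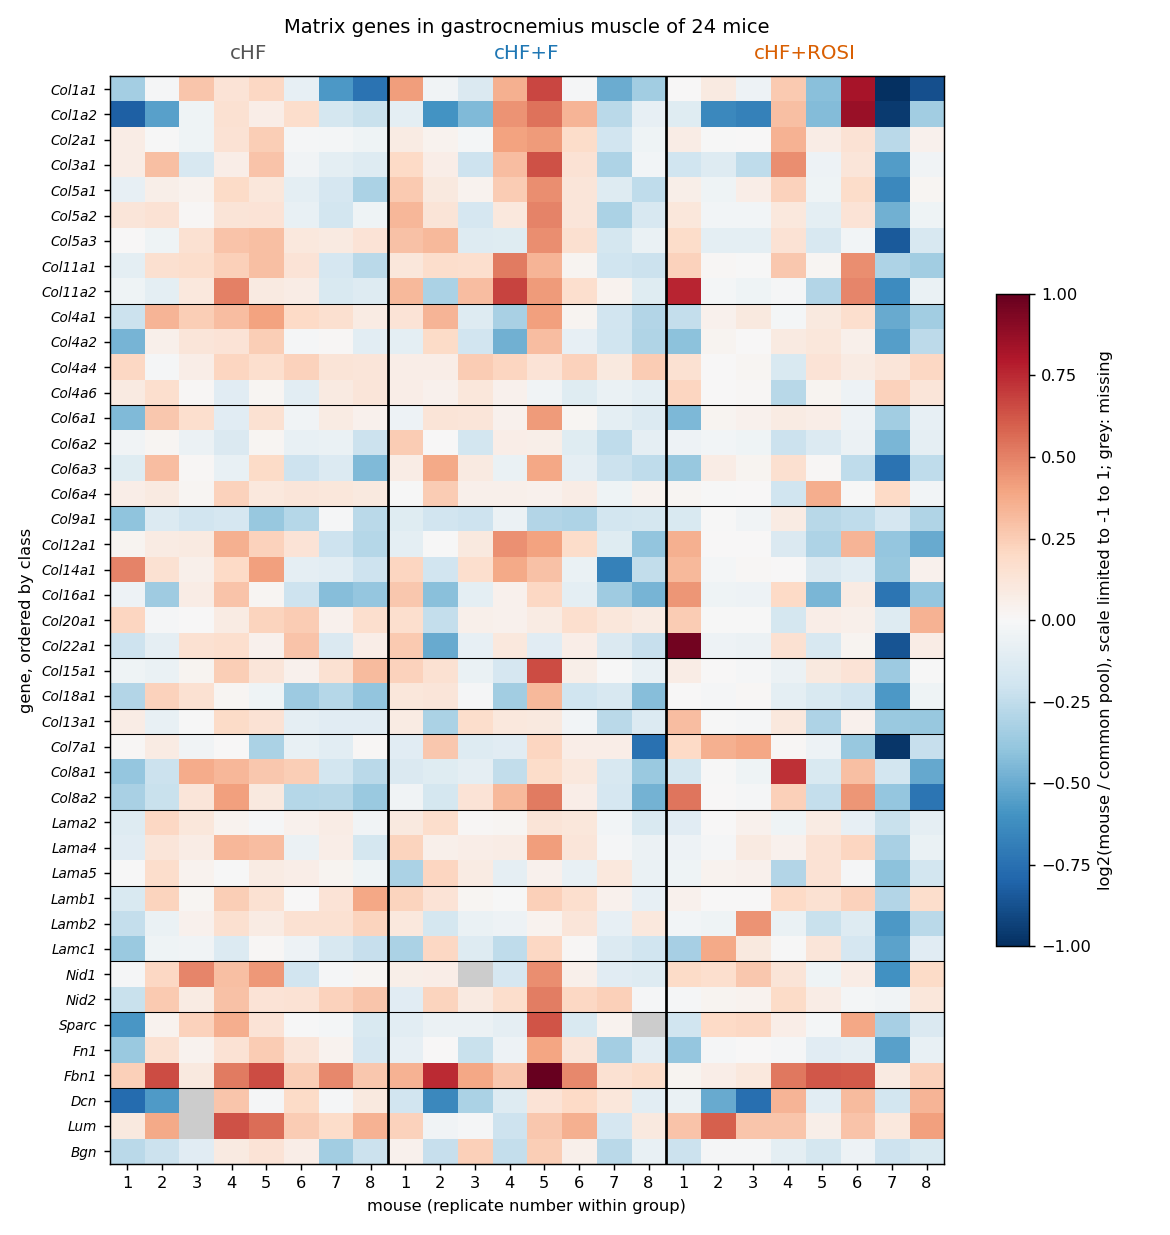
Heat map of log2(mouse / common pool) for the 43 matrix genes (rows, ordered by class and separated by thin lines) in the 24 mice (columns, 8 replicates in each of cHF, cHF+F and cHF+ROSI). Colour runs from -1 (blue) to 1 (red), limited at both ends, and grey marks spots left out because they were flagged. The columns of cHF+F replicate 5 (mostly red) and cHF+ROSI replicate 7 (mostly blue) stand out more than any group does.

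Few of these genes differed between diets by more than the spread between mice. Against cHF, 1 of 43 genes (2.33%) passed an unadjusted p of 0.05 in cHF+F mice, where 7.38% of all 10669 genes did. In cHF+ROSI mice 2 of 43 (4.65%) passed, where 4.86% of all genes did, and between cHF+F and cHF+ROSI 1 of 43 (2.33%) passed, where 6.7% of all genes did. In each comparison the matrix genes thus passed no more often than genes in general. With limma and Benjamini-Hochberg adjustment over all 15958 probes kept, 0 probes of any gene passed 0.05 in each of the 3 comparisons (0% called), and the lowest adjusted p of a matrix gene was 0.473 for cHF+F against cHF, 0.996 for cHF+ROSI against cHF and 0.712 for cHF+F against cHF+ROSI.

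The spread between the arrays of a group, which includes differences between slides, sets what could be seen. The 95% interval of a change reached a median of 0.22 to either side on the log2 scale, and 0.46 for the widest, that of Col1a1. Intervals lay wholly within a 1.5-fold change in either direction for 41, 43 and 41 of the 43 genes in cHF+F against cHF, cHF+ROSI against cHF and cHF+F against cHF+ROSI. Changes smaller than the interval were not detectable with 8 mice a group in this fit, which has no slide term. With slide as a block the SE of Col1a1 was 0.16 in place of 0.22, while that of Lamb2 was 0.096 in place of 0.094.

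The direction of the changes is a description only, since the genes were chosen together. In cHF+F mice 24 of 43 genes were higher and 19 lower than in cHF mice (44.2% lower, against 53.2% of all genes), with a median change of 0.014 beside -0.0062 over all genes. In cHF+ROSI mice 35 of 43 were lower than in cHF mice (81.4%, against 55.3% of all genes), with a median of -0.067 beside -0.0095. Between the treated groups 35 of 43 were higher in cHF+F than in cHF+ROSI (18.6% lower, against 48.5% of all genes), with a median of 0.076 beside 0.0030. These comparisons share mice, so the 3 counts are not independent of each other. Without cHF+ROSI replicate 7 the number lower in cHF+ROSI than in cHF went from 35 to 26 and the median to -0.021, and between cHF+F and cHF+ROSI the number lower went from 8 to 17 and the median to 0.029. Without cHF+F replicate 5, 30 rather than 19 genes were lower in cHF+F than in cHF, and the median was -0.035.

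**Figure D2:**
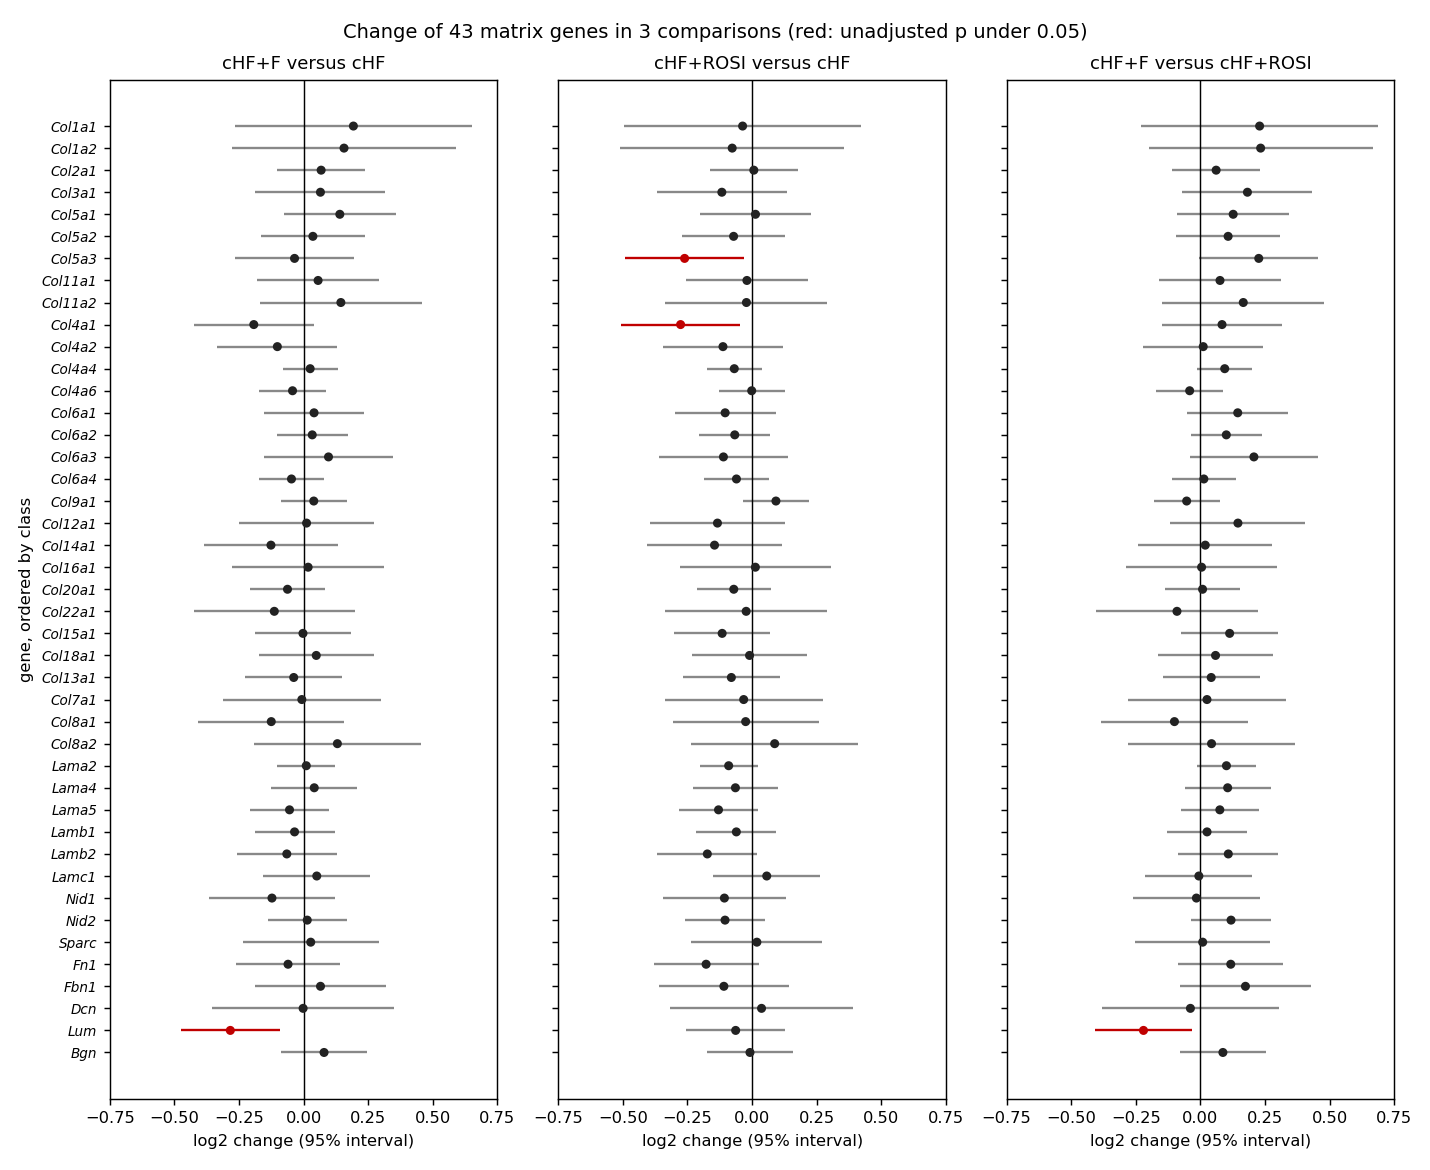
Log2 change (points) with 95% interval (lines) of each of the 43 matrix genes, ordered by class, in the 3 comparisons, from 1 limma fit over 24 mice. Red marks an unadjusted p under 0.05: Lum in cHF+F against cHF and against cHF+ROSI, Col5a3 and Col4a1 in cHF+ROSI against cHF. All other intervals cross 0.

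Lum showed the lowest unadjusted p of any matrix gene. It encodes lumican, a small leucine-rich proteoglycan that binds fibrillar collagen and limits the thickness of its fibrils. Its probe lies at chr10:97002264-97002323 on mm8 (plus strand). In cHF mice (n = 7, since 1 spot was flagged) its log2 ratio was 0.10 at the lowest, 0.35 at the median and 0.63 at the highest. In cHF+F mice (n = 8) these values were -0.21, 0.04 and 0.35. In cHF+ROSI mice (n = 8) they were 0.06, 0.28 and 0.60. The cHF+F mice lay lowest, with 7 of 8 below the cHF mean, but the 3 groups overlapped.

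The change of Lum in cHF+F against cHF was -0.28 (SE 0.09, 95% interval -0.48 to -0.09), or 0.82-fold, with an unadjusted p of 0.00548 and an adjusted p of 0.473 in limma. It was lower on 5 of the 7 slides that held both values and higher on 2. Against cHF+ROSI the change was -0.22 (SE 0.09, interval -0.41 to -0.035; unadjusted p = 0.022, adjusted p = 0.712 in limma), and it shares the cHF+F mice with the first comparison. In cHF+ROSI against cHF it was -0.06 (interval -0.26 to 0.13). The first of these kept its sign and an unadjusted p under 0.05 in all 14 alternative processings and in all 24 fits without 1 mouse. The second did so in 9 of 13 processings and in 21 of 24 fits, the exceptions among the fits being those without cHF+F replicate 4, cHF+F replicate 7 or cHF+ROSI replicate 2 (p from limma, 0.0558, 0.0526 and 0.0589). Without slides 1 to 3, an alternative chosen after seeing the data, it was -0.16 with a p of 0.187 in limma.

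Dcn and Bgn did not share this. Dcn, decorin, which binds type I collagen and TGF-beta, had a change of -0.0022 (SE 0.17) in cHF+F against cHF and 0.04 (SE 0.17) in cHF+ROSI against cHF. Its mice were widely spread, from -0.77 to 0.27 in cHF, -0.65 to 0.20 in cHF+F and -0.76 to 0.34 in cHF+ROSI. Bgn, biglycan, a close relative of decorin, had changes of 0.08 (SE 0.08) and -0.0081 (SE 0.08). Fibroblast markers bear on Lum, which is itself 1 of the 14 listed. All 14 were bright, and 10 were lower and 4 higher in cHF+F than in cHF, where 53.2% of all genes were lower. The split was the same in cHF+ROSI against cHF, at 10 lower and 4 higher, where 55.3% of all genes were lower. Their mean log2 ratio per mouse ran from -0.09 to 0.19 in cHF, -0.14 to 0.18 in cHF+F and -0.09 to 0.17 in cHF+ROSI. Their part in the Lum values was not tested.

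Among the basement membrane collagens, Col4a1 stood lowest in cHF+ROSI. Col4a1 and Col4a2 encode the chains of the common type IV collagen network found around fibres and capillaries alike. The probe of Col4a1 lies at chr8:11198981-11199040 on mm8 (minus strand). In cHF mice (n = 8) its lowest, median and highest log2 ratios were -0.21, 0.22 and 0.41. In cHF+F mice they were -0.32, -0.05 and 0.41, and in cHF+ROSI mice -0.50, 0.01 and 0.17. All 8 cHF+ROSI mice lay below the cHF mean of 0.19, yet the groups overlapped, with cHF replicates 1, 7 and 8 below the highest cHF+ROSI mouse.

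The change of Col4a1 in cHF+ROSI against cHF was -0.28 (SE 0.11, 95% interval -0.51 to -0.045), or 0.83-fold, with an unadjusted p of 0.0211 and an adjusted p of 0.996 in limma. It was lower on 8 of 8 slides. Without cHF+ROSI replicate 7 it was -0.22 with an unadjusted p of 0.0586. A dimmer probe of the gene gave -0.18 with an unadjusted p of 0.0883, in the same direction. With slide as a block the unadjusted p was 0.00454 and the adjusted p 0.342, both from limma. In cHF+F against cHF the change was -0.19 (SE 0.11; unadjusted p = 0.0985 in limma, 0.0369 with the block), and -0.25 without cHF+F replicate 5 (unadjusted p = 0.0305 in limma).

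Col4a2 followed the same mice, at a smaller change on its brightest probe. Its log2 ratios ran from -0.47 through a median of 0.03 to 0.24 in cHF, from -0.48 through -0.14 to 0.31 in cHF+F, and from -0.55 through 0.01 to 0.12 in cHF+ROSI. Its change was -0.10 (SE 0.11) in cHF+F against cHF and -0.11 (SE 0.11) in cHF+ROSI against cHF, both within the spread between mice. The latter was -0.05 without cHF+ROSI replicate 7, and the former -0.16 without cHF+F replicate 5. A dimmer probe of Col4a2 gave -0.14 in cHF+F and -0.19 in cHF+ROSI against cHF (SE 0.11 each). The dimmer probe of Col4a1 gave -0.13 and -0.18, so the smaller change of Col4a2 depends on the probe. The other type IV chains measured, Col4a4 and Col4a6, had changes between -0.07 and 0.03 against cHF. Without cHF+ROSI replicate 7 all 4 type IV chains were still lower in cHF+ROSI than in cHF, with a median of -0.063 in place of -0.091, none past an unadjusted p of 0.05.

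Endothelial markers were lower beside Col4a1. All 14 listed markers were bright, and 11 of 14 were lower in cHF+ROSI than in cHF, where 55.3% of all genes were lower, and 3 of them passed an unadjusted p (Cldn5, Kdr and Tek), where 4.86% of all genes did. In cHF+F against cHF 14 of 14 were lower, beside 53.2% of all genes, and 6 of them passed an unadjusted p, beside 7.38% of all genes. Their mean log2 ratio per mouse ran from -0.19 to 0.16 in cHF, -0.32 to -0.07 in cHF+F and -0.22 to 0.06 in cHF+ROSI, with cHF+ROSI replicate 7 lowest in its group, as for Col4a1. Their part in the Col4a1 values was not tested.

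**Figure D3:**
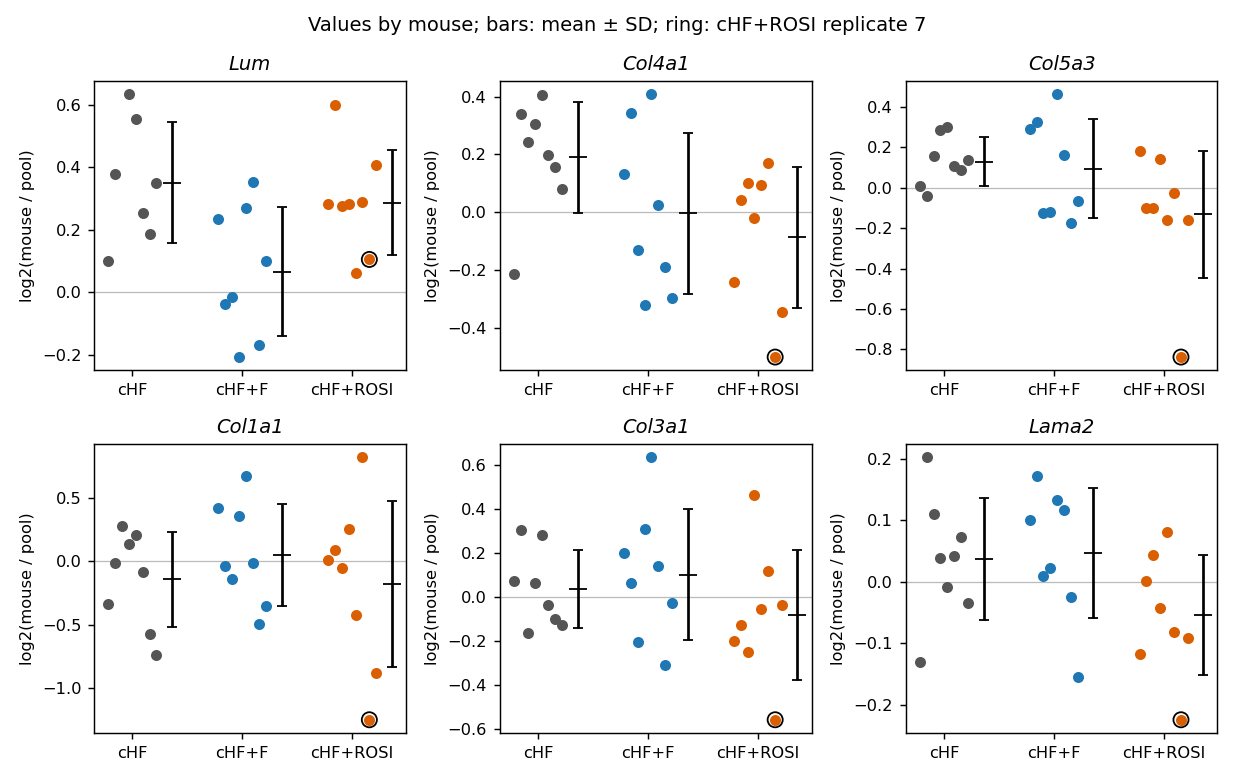
Log2(mouse / common pool) of Lum, Col4a1, Col5a3, Col1a1, Col3a1 and Lama2 in each mouse (points; y axis, log2 units), with the mean and SD of each group beside the points and a ring around cHF+ROSI replicate 7. Lum lies lowest in cHF+F, Col4a1 and Col5a3 lie lowest in cHF+ROSI, and the groups overlap in every panel.

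The fibrillar collagens form the tensile fibres of the interstitium. Col5a3, a chain of the type V collagen that starts and thins collagen fibrils, was the only fibrillar gene past an unadjusted p. Its probe lies at chr9:20520550-20520609 on mm8 (minus strand). Its lowest, median and highest log2 ratios were -0.04, 0.12 and 0.30 in cHF mice, -0.17, 0.05 and 0.46 in cHF+F mice, and -0.84, -0.10 and 0.18 in cHF+ROSI mice (n = 8 each). The value of -0.84 belonged to cHF+ROSI replicate 7, and the next lowest of that group was -0.16.

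The change of Col5a3 in cHF+ROSI against cHF was -0.26 (SE 0.11, 95% interval -0.49 to -0.03), with an unadjusted p of 0.0278 and an adjusted p of 0.996 in limma, and it was lower on 7 of 8 slides. Without cHF+ROSI replicate 7 it was -0.16 with an unadjusted p of 0.0832. It also missed an unadjusted p of 0.05 without cHF replicate 4 (0.0518) and without cHF replicate 5 (0.0535). The corresponding change for cHF+F against cHF was -0.04 (SE 0.11), and for cHF+F against cHF+ROSI 0.23 (SE 0.11; unadjusted p = 0.0545 in limma), or 0.12 without cHF+ROSI replicate 7.

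The main collagens of the interstitium varied far more between mice than between diets. Col1a1, the alpha 1 chain of type I collagen, ran from -0.74 through a median of -0.05 to 0.28 in cHF, from -0.50 through -0.02 to 0.67 in cHF+F, and from -1.25 through -0.02 to 0.82 in cHF+ROSI. The group medians thus lay close together while single mice spanned over 1 log2 unit. Col1a2, its partner chain, ran from -0.82 through -0.11 to 0.18, from -0.59 through -0.09 to 0.55, and from -0.96 through -0.39 to 0.86. Col3a1, the type III collagen that stretches with the tissue, ran from -0.16 through 0.01 to 0.30, from -0.31 through 0.10 to 0.64, and from -0.56 through -0.09 to 0.46. In cHF+ROSI the lowest mouse was replicate 7 for all 3 genes.

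Changes of these 3 genes were within the spread between mice. They were, in cHF+F against cHF, 0.19 (SE 0.22) for Col1a1, 0.16 (SE 0.21) for Col1a2 and 0.06 (SE 0.12) for Col3a1. In cHF+ROSI against cHF they were -0.04, -0.08 and -0.12, with the same errors. Without cHF+ROSI replicate 7 the latter became 0.12, 0.02 and -0.05, and without cHF+F replicate 5 the former became 0.10, 0.08 and -0.01. Col5a1, the main type V chain, had changes of 0.14 (SE 0.11) in cHF+F and 0.01 in cHF+ROSI, the latter 0.10 without cHF+ROSI replicate 7. Col11a2, a minor fibrillar chain, had changes of 0.14 and -0.02 (SE 0.15 each), the latter 0.07 without that mouse.

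As a class, 8 of 9 fibrillar collagens were higher in cHF+F than in cHF (median 0.068), or 6 of 9 without cHF+F replicate 5 (median 0.024). In cHF+ROSI 7 of 9 were lower than in cHF (median -0.037), and without replicate 7 of that group the direction turned, with 6 of 9 higher (median 0.030). Between the treated groups all 9 fibrillar collagens were higher in cHF+F than in cHF+ROSI, from 0.06 (Col2a1) to 0.23 (Col1a2), none past an unadjusted p of 0.05, with a median of 0.17. All 9 remained higher without cHF+ROSI replicate 7, at a median of 0.073, and without cHF+F replicate 5, at a median of 0.11. Since these genes vary together among mice, the 9 are not 9 separate observations. With slide as a block, Col3a1 (0.18, unadjusted p = 0.0469 in limma) and Col5a3 (0.23, unadjusted p = 0.0342 in limma) passed an unadjusted 0.05, with adjusted p-values of 0.373 and 0.346.

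Collagen VI forms the beaded filaments around each fibre. Its Col6a1, Col6a2, Col6a3 and Col6a4 chains were all lower in cHF+ROSI than in cHF, by -0.11 (Col6a3) to -0.06 (Col6a4), and all higher in cHF+F than in cHF+ROSI, by 0.01 (Col6a4) to 0.21 (Col6a3), with none past an unadjusted p. Without cHF+ROSI replicate 7 the change against cHF was -0.07 for Col6a1, -0.02 for Col6a2 and -0.03 for Col6a3, and Col6a3 in cHF+F against cHF+ROSI was 0.13. Col6a3 ran from -0.44 through a median of -0.10 to 0.31 in cHF, from -0.26 through 0.0044 to 0.39 in cHF+F and from -0.74 through -0.12 to 0.16 in cHF+ROSI. With slide as a block, Col6a3 in cHF+F against cHF+ROSI had an unadjusted p of 0.0105 and an adjusted p of 0.238, and Col6a1 had 0.0385 and 0.356, all from limma with both arrays that stood apart included.

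The fibril-associated collagens, which coat the fibrils, were mixed. Of 6 measured, 3 were higher and 3 lower in cHF+F than in cHF, and 2 higher and 4 lower in cHF+ROSI than in cHF. Col14a1, found where fibrils carry load, had changes of -0.13 and -0.15 (SE 0.13 each), the latter -0.10 without cHF+ROSI replicate 7. Col9a1, a chain of the cartilage-type collagen IX, had the largest positive change of all 43 genes in cHF+ROSI against cHF, at 0.09 (SE 0.06), against the mostly lower direction. Col20a1 had changes of -0.06 and -0.07 (SE 0.07 each). Col22a1, a collagen of the muscle-tendon junction, had the widest range of its class in cHF+ROSI, from -0.86 in replicate 7 to 0.96 in replicate 1, and changes of -0.11 and -0.02 (SE 0.15 each). Col15a1 and Col18a1, basement membrane collagens that release endostatin-like fragments, had changes of -0.0028 and 0.05 in cHF+F and of -0.12 and -0.0098 in cHF+ROSI, none past an unadjusted p. That of Col15a1 was -0.07 without cHF+ROSI replicate 7, and in cHF+F it was -0.08 without cHF+F replicate 5. Col8a1, a network collagen of vessel walls, had -0.13 and -0.03 (SE 0.14 each).

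No laminin passed an unadjusted p as processed here, although Lamb2 did under several alternatives. Lama2, the alpha chain of the fibre's own basement membrane, stayed within -0.22 and 0.20 in all 24 mice. Its medians were 0.04 in cHF, 0.06 in cHF+F and -0.06 in cHF+ROSI. Its change was 0.01 (SE 0.05) in cHF+F against cHF and -0.09 (SE 0.05; interval -0.20 to 0.02) in cHF+ROSI against cHF. In cHF+F against cHF+ROSI it was 0.10 (SE 0.05; unadjusted p = 0.0784 in limma, 0.0442 with the block).

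Lama4 and Lama5, alpha chains of vessel basement membranes, had changes of -0.06 (SE 0.08) and -0.13 (SE 0.07; unadjusted p = 0.0891 in limma) in cHF+ROSI against cHF. Lamb2, the beta chain enriched at the neuromuscular junction, had -0.17 (SE 0.09; unadjusted p = 0.0776 in limma), with cHF+ROSI values from -0.58 in replicate 7 to 0.45 in replicate 3. The change of Lamb2 passed an unadjusted p in limma with no background correction (-0.24, unadjusted p of 0.00571), with processed signals of Feature Extraction (-0.23, 0.0113), with a narrower loess span (-0.20, 0.0238) and with Cy5 alone (-0.46, 0.0301). Without slides 1 to 3, chosen after seeing the data, it was -0.41 with an unadjusted p of 0.000107 in limma, and without cHF+ROSI replicate 7 it was -0.11 with an unadjusted p of 0.222. In cHF+F against cHF+ROSI Lamb2 was 0.11 (SE 0.09), and passed an unadjusted p with no background correction (0.18), with processed signals (0.17) and without slides 1 to 3 (0.28). Lamc1, the gamma chain shared by most laminins, differed in sign at 0.06 (SE 0.10), or 0.12 without cHF+ROSI replicate 7. The nidogens, which bridge laminin to type IV collagen, had -0.11 (SE 0.12) for Nid1 and -0.10 (SE 0.07) for Nid2. Nid1 was at -0.014, Lama4 at -0.02 and Lama5 at -0.08 without cHF+ROSI replicate 7. In cHF+F against cHF the changes of these 6 genes lay between -0.12 and 0.05, none past an unadjusted p, with Nid1 at -0.19 without cHF+F replicate 5.

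The glycoproteins gave no change past an unadjusted p. Sparc, a collagen-binding protein needed for basement membrane assembly, had 0.03 (SE 0.13) in cHF+F and 0.02 (SE 0.12) in cHF+ROSI against cHF. Fbn1, the fibrillin of elastic microfibrils, had 0.07 and -0.11 (SE 0.12 each). In cHF+F without replicate 5 Sparc was at -0.07 and Fbn1 at -0.03, and in cHF+ROSI without replicate 7 Sparc was at 0.07. Fn1, fibronectin, on which new collagen fibrils are laid, had -0.18 in cHF+ROSI against cHF (SE 0.10; unadjusted p = 0.0832 in limma, 0.026 with the block), with 8 of 8 cHF+ROSI mice below the cHF mean. A dimmer Fn1 probe gave 0.05 (SE 0.08) for the same comparison, and the probes of Fn1 correlated at only 0.36 across the 24 arrays, so the direction for this gene depends on the probe. Of the 9 matrix genes with more than 1 bright probe, all probes had the same sign in 5 genes for cHF+F against cHF and in 6 for each of the other comparisons, whereas the probes of Col1a1, Col4a1 and Col4a2 correlated at 0.92, 0.90 and 0.94.

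Each slide held 1 mouse of each group, so differences could also be read within slides. The median difference of the 43 genes in cHF+F against cHF+ROSI was 0.35 on slide 5 and 0.27 on slide 7, and between -0.052 and 0.036 on the other 6 slides. In cHF+ROSI against cHF it was -0.38 on slide 7, -0.17 on slide 5 and 0.15 on slide 1, and from -0.085 to 0.060 on the rest. For cHF+F against cHF it was 0.27 on slide 1 and 0.14 on slide 5, and from -0.091 to 0.055 on the rest. All named genes together stayed between -0.064 and 0.063 in every slide and comparison. The shifts of the matrix genes as a body thus came from a few slides, and the slide that carried the most was not the same in the 3 comparisons.

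**Figure D4:**
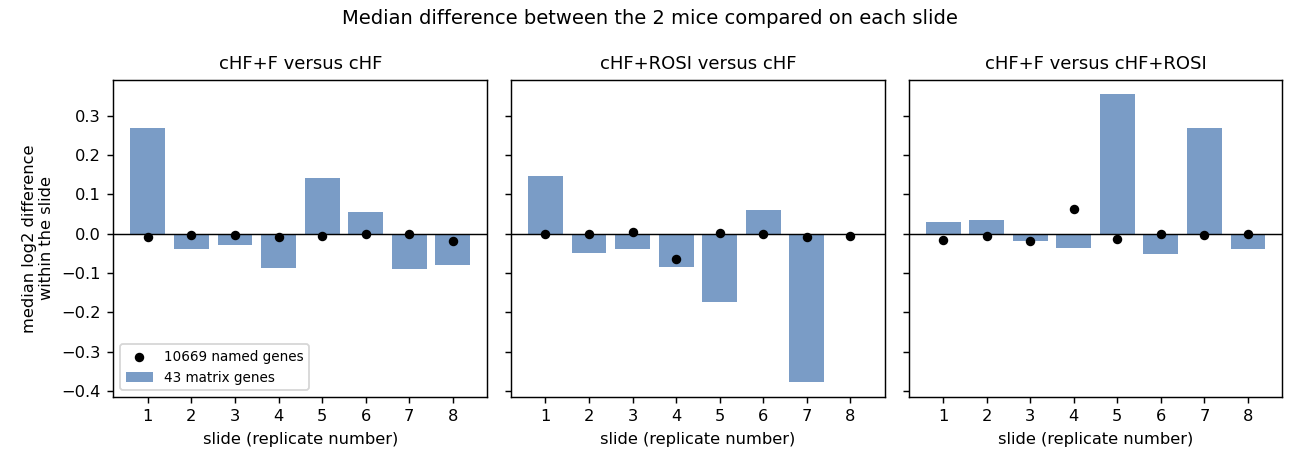
Median log2 difference between the mice of both groups on each of the 8 slides, for the 43 matrix genes (bars) and for all 10669 named genes (points), in the 3 comparisons. The matrix genes reach 0.35 on slide 5 and 0.27 on slide 7 in cHF+F against cHF+ROSI and -0.38 on slide 7 in cHF+ROSI against cHF, while the points stay near 0.

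How matrix genes varied together was examined in 10 pairs across the mice, with permutation p-values (100000 permutations, two-sided) adjusted over the 10 by Benjamini-Hochberg. Both genes of a pair were read on the same array against the same pool, so array effects are shared within a pair. Col4a1 and Col4a2 tracked most closely, at r = 0.92 and rho = 0.89 (n = 24, permutation p = 1e-05, the smallest 100000 permutations can give, adjusted p = 1e-04). The relation held without the 2 mice farthest from the median of Col4a1 (r = 0.91), within each group (r = 0.97, 0.96 and 0.92 in cHF, cHF+F and cHF+ROSI), with slide and group means removed (r = 0.95) and in the Cy5 signal alone (r = 0.84). The genes lie on opposite strands of chromosome 8, with annotated starts that overlap. In RefSeq on GRCm38.p6 the first base of Col4a1 (- strand) is 11312826 and that of Col4a2 (+ strand) is 11312805. These first bases are 21 bases apart, and each lies inside the annotated transcript of the other gene, so no gap separates the genes. Their promoter windows, from 250 bases before to 50 after each start, shared 78 bases (chr8:11312777-11312854). The shared bases hold both first bases, 1 GGGCGG and no CCAAT box or TATA element.

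The type I chains, which assemble as a heterotrimer, tracked each other less evenly. Col1a1 and Col1a2 had r = 0.68 and rho = 0.62 (n = 24, permutation p = 0.00029, adjusted p = 0.0012), and r = 0.62 without the 2 farthest mice, which were cHF+ROSI replicates 7 and 8. With slide and group means removed r was 0.91, and in the Cy5 signal alone it was 0.24. Col1a1 and Col3a1 had r = 0.67 and rho = 0.61 (permutation p = 0.00036, adjusted p = 0.0012), with -0.096 in Cy5 alone. Col1a1 and Sparc had r = 0.63 and rho = 0.55 (n = 23, permutation p = 0.00132, adjusted p = 0.00322), with 0.16 in Cy5 alone. Col1a1 and Col4a1 had r = 0.56 and rho = 0.48 (permutation p = 0.00456, adjusted p = 0.0076), but r was 0.33 over the other mice without the 2 farthest (permutation p = 0.137), so the relation pooled over all mice rests in part on those 2, both in cHF+ROSI. Within cHF and cHF+F, which do not hold them, r was 0.61 and 0.54.

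**Figure D5:**
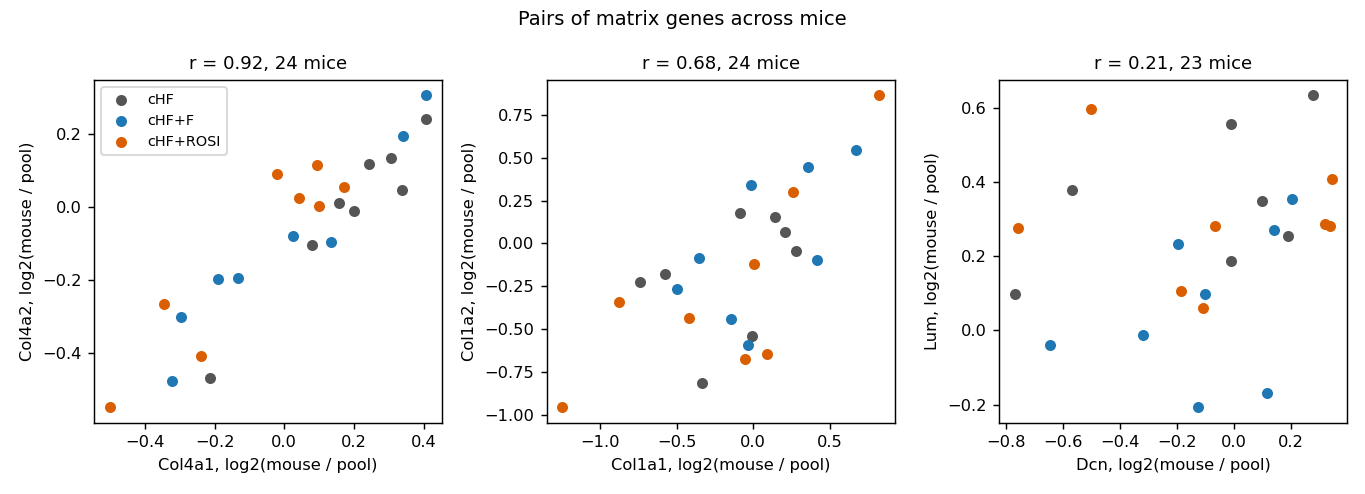
Log2(mouse / common pool) of 3 pairs of matrix genes in each mouse (points coloured by group; both axes in log2 units): Col4a1 and Col4a2 (r = 0.92, n = 24), Col1a1 and Col1a2 (r = 0.68, n = 24) and Dcn and Lum (r = 0.21, n = 23). The type IV pair lies close to a line in all 3 groups, the type I pair scatters more, and the proteoglycan pair shows no clear line.

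Basement membrane partners were looser. Lama2 and Lamc1, chains of the same laminin, had r = 0.60 and rho = 0.60 (permutation p = 0.00161, adjusted p = 0.00322; r = 0.52 without the 2 farthest mice). Lamc1 and Nid1, which bind each other, had r = 0.53 and rho = 0.46 (n = 23, permutation p = 0.00892, adjusted p = 0.0127), and r = 0.38 without the 2 farthest mice (permutation p = 0.0889), so the relation pooled over all mice rests in part on those 2, both in cHF+ROSI. Within cHF and cHF+F r was 0.50 and 0.70. Lamb2 and Lamc1 had r = 0.29 and rho = 0.089 (permutation p = 0.171, adjusted p = 0.19), and r = -0.12 without the 2 farthest mice.

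Col6a1 and Col6a2, whose products share a molecule, had r = 0.32 and rho = 0.29 (permutation p = 0.131, adjusted p = 0.164). Dcn and Lum, both binding fibrillar collagen, had r = 0.21 and rho = 0.38 (n = 23, permutation p = 0.325, adjusted p = 0.325). Neither pair passed the adjusted threshold. With slide and group means removed, r was 0.57 for Col6a1 and Col6a2 and 0.51 for Dcn and Lum.

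Across whole classes the values are a description over pairs of genes that share arrays. The median r was 0.68 over the 36 pairs of fibrillar collagens, 0.45 over the 28 pairs of laminins and nidogens, 0.41 between fibrillar collagens and collagen VI chains, and 0.36 between fibrillar collagens and laminins or nidogens. It was -0.27 over the 6 pairs of type IV chains, although Col4a1 and Col4a2 tracked closely. The other type IV chains, Col4a4 and Col4a6, were near the limit in Cy3, at 2.77 and 2.45 times background. Col4a1 and Col4a2 were at 13.8 and 11.5, and every other type IV pair holds Col4a4 or Col4a6. The type IV median was -0.49 with slide and group means removed. The part of dimness in it was not tested. The closest matrix gene to Col1a1 was Col11a1 (r = 0.89), to Col3a1 it was Col2a1 (0.88), to Col5a1 it was Col5a2 (0.86), to Dcn it was Col1a2 (0.72), and to Lum it was Nid1 (0.60). Of these partners, Col11a1 and Col2a1 were dim in Cy3, at 2.02 and 2.54 times background.

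Genes that make, cut or sense the matrix gave 0 changes past an adjusted p of 0.05 in limma, and few past an unadjusted one. Over all genes, 7.38, 4.86 and 6.7% passed an unadjusted p in cHF+F against cHF, cHF+ROSI against cHF and cHF+F against cHF+ROSI. In the same order, 53.2, 55.3 and 48.5% of all genes were lower. Of 23 bright genes of collagen folding, modification and crosslinking, 12 were higher and 11 lower in cHF+F than in cHF (median 0.0052) with none past an unadjusted p. In cHF+ROSI 10 were higher and 13 lower (median -0.0062), with Loxl1, a crosslinking lysyl oxidase, past it at -0.16 (SE 0.06). P3h1, a prolyl 3-hydroxylase of fibrillar collagen, was past it at 0.19 (SE 0.07) in cHF+F against cHF+ROSI.

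Of 17 bright proteases and inhibitors of matrix remodelling, 13 were lower in cHF+F and 12 in cHF+ROSI than in cHF (medians -0.050 and -0.095). Of all genes, 53.2 and 55.3% were lower in these comparisons. Past an unadjusted p were Mmp11, a stromal metalloproteinase, at -0.16 (SE 0.07) in cHF+F against cHF, and Adamts5, an aggrecan-cutting protease, at 0.18 (SE 0.09) in cHF+F against cHF+ROSI.

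Receptors included the anchors of the fibre to its laminin. Of 21 bright ones, 8 were higher and 13 lower in cHF+F than in cHF (median -0.055), where 53.2% of all genes were lower. Dag1, the dystroglycan that binds laminin alpha 2, was higher at 0.24 (SE 0.09; unadjusted p = 0.0162, adjusted p = 0.605 in limma), as was its complex partner Sgcd at 0.14 (SE 0.06), while Itga5, the fibronectin receptor, was lower at -0.12 (SE 0.05). In cHF+ROSI against cHF 9 receptors were higher and 12 lower, beside 55.3% of all genes lower, with none past an unadjusted p.

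Of 20 bright regulators of matrix genes, 12 were lower in cHF+F and 12 in cHF+ROSI than in cHF (medians -0.044 and -0.044). The shares of all genes lower were 53.2 and 55.3%. In cHF+F mice Ccn1, a matricellular protein induced by TGF-beta and by stretch, was at -0.33 (SE 0.11; unadjusted p = 0.00709, adjusted p = 0.506 in limma), and Pdgfb, the growth factor of pericytes and fibroblasts, at -0.14 (SE 0.05). In cHF+ROSI mice Pdgfb was at -0.14 (SE 0.05) and Fst, the myostatin-binding follistatin, at -0.19 (SE 0.08).

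Of 32 other bright matrix genes, 25 were lower and 7 higher in cHF+F than in cHF (median -0.085 beside -0.0062 over all genes), and 22 were lower in cHF+ROSI (median -0.048 beside -0.0095). Lower among all genes were 53.2 and 55.3%. Past an unadjusted p in cHF+F against cHF were Agrn, agrin of the neuromuscular junction and capillary basement membrane, at -0.28 (SE 0.11), Mgp, matrix Gla protein, at -0.26 (SE 0.10), and Aspn, asporin, a relative of lumican, at -0.15 (SE 0.06). Mgp was also at -0.27 (SE 0.10) in cHF+F against cHF+ROSI.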

How the data were processed

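Muscle RNA of 24 mice was read on 2-colour Agilent 44K arrays, Cy5 for the mouse and Cy3 for the pool, with no dye swap. The deposited scanner files give spot intensity and background per channel from Feature Extraction (10.5.1.1 per the file headers, 10.5.5.1 in the submitters' processing notes) for probes placed on mm8. The number of arrays limits the precision. Median spot intensities were background-corrected (normexp, offset 50), converted to log2(Cy5/Cy3) and normalised within each array by loess (span 0.3) in R 4.3.3 with limma 3.58.1. Control and flagged spots were left out and spots of 1 probe averaged. Probes needed at least 4 unflagged arrays per group and a mean signal over background of at least 2 in both channels (15958 of 41174 probes). Names came from the accession through RefSeq (12624 probes) or else the file (2467), and 867 had none. The brightest probe stood for a gene.

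The 3 groups, as labelled, were fitted in 1 limma model without covariates, two-sided, and adjusted by Benjamini-Hochberg over all probes kept. The analysis was tested on simulated data. Replicate numbers 1 to 8 coincided with slides, all scanned on 1 day with array position fixed by group, and were used as a block in an alternative fit. Deviations of same-numbered mice from their group means correlated at -0.11 to 0.64 (cHF+F and cHF), 0.036 to 0.60 (cHF+ROSI and cHF) and -0.0038 to 0.46 (cHF+F and cHF+ROSI), not all over 0.1. No arrays were alike enough to be 1 sample (highest r of log2 Cy5 between arrays 0.997).

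The authors' normalized table, used as an alternative for cHF+F against cHF, holds log2 values deposited by the authors with dim probes removed, by the study's methods, below 2 times background (20721 rows). Its 16 used columns share a median of 8.99, and 8 columns named for a combined diet that matches no group were not used.

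The genes named in the text are, in each comparison, the 10 matrix genes with the smallest p, 18 fixed representatives of the classes, and up to 5 genes past an unadjusted p in each list, with others named as class extremes, as dim genes or as closest partners after their values were seen. The matrix genes, pairs and lists were chosen with earlier results of these data known. Alternatives covered background correction, spot statistic, normalisation, filters, slide block, array weights, the methods' t-test, probes of a gene, the authors' table and each mouse left out. Some items are not reported here.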

Additional observations from a re-analysis of the deposited data

Results flagged for a closer look

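In 11 of 90 sets of mice tested (1 gene in 1 group of 7 or 8 mice), 1 mouse lay far from the rest. For a single set, chance gives about 1 in 20. The sets share arrays and their genes vary together, so they are not independent and the 11 cannot be judged against that rate. The value given for each is the gap to the next mouse as a share of the whole range of its group. In cHF+ROSI all 5 belonged to replicate 7, which was the lowest: Col5a1 (0.687, at -0.64), Col5a3 (0.664, at -0.84), Col6a2 (0.561, at -0.46), Col15a1 (0.615, at -0.37) and Nid1 (0.643, at -0.60). On that array the fibroblast, endothelial, adipocyte and smooth muscle markers also had their lowest mean of the cHF+ROSI group. The tendon, Schwann, macrophage and fast-fibre markers had theirs in other mice, replicates 8, 5, 5 and 3.

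In cHF+F, 3 belonged to replicate 5, which was the highest: Sparc (0.757, at 0.63), Nid1 (0.630, at 0.46) and Col6a1 (0.529, at 0.42). The fibroblast, endothelial, Schwann, adipocyte and smooth muscle markers had their highest mean of the cHF+F group in the same mouse. For the endothelial markers replicate 6 was close behind, at -0.076 beside -0.074. Tendon, macrophage and fast-fibre markers were highest in replicates 4, 1 and 8. Col20a1 in cHF+F was low in replicate 2 (0.701, at -0.24). In cHF, Col11a2 was high in replicate 4 (0.608, at 0.50) and Nid2 was low in replicate 1 (0.592, at -0.22). The part of the marker values in these outlying mice was not tested.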

How the results depend on the processing

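No matrix gene passed an adjusted p of 0.05 in any fit, and leaving out each mouse in turn gave 0 in all 3 comparisons. The number past an unadjusted p (1, 2 and 1 in cHF+F against cHF, cHF+ROSI against cHF, and cHF+F against cHF+ROSI) ranged over the 24 fits without 1 mouse from 1 to 2, from 0 (without cHF+ROSI replicate 7) to 6 (without cHF replicate 1) and from 0 (without cHF+ROSI replicate 2) to 4 (without cHF+ROSI replicate 4). The median change ranged from -0.035 to 0.039, from -0.087 to -0.021 and from 0.029 to 0.11. Under other processing the median of cHF+F against cHF lay between -0.016 and 0.021, so its sign is not settled.

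With the replicate block, which follows the slides, the counts were 2, 3 and 6 (Col4a1 and Lum; Col4a1, Col5a3 and Fn1; Col3a1, Col5a3, Col6a1, Col6a3, Lama2 and Lum), beside 12.8, 9.91 and 13.4% of all genes, and 6, 0 and 0 probes of any gene passed an adjusted p of 0.05. Of 8 mice 5, 4 and 2 correlated best with the mouse of their own number, a hint from the data and not from the design. For cHF+F against cHF the count was 2 with no filter on dim probes, 2 with array weights (which gave 12 probes of any gene past an adjusted p), 2 without slides 1 to 3 (chosen after seeing the data) and 4 in the authors' normalized table, which holds 50 matrix genes. For cHF+ROSI against cHF it was 0 with median centring in place of loess and 4 with Cy5 alone. For cHF+F against cHF+ROSI it was 3 with no background correction, 2 with mean spot signals, 3 with processed signals of Feature Extraction, 3 with Cy5 alone, 2 with no filter on dim probes and 3 with array weights. The methods' t-test gave 1, 2 and 1 genes at its threshold and 0 after Benjamini-Hochberg. The cause of these moves was not tested.

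Correlations depended more on processing. With slide and group means removed (replicate block), r became 0.57 for Col6a1 and Col6a2, 0.60 for Lamb2 and Lamc1, 0.40 for Lama2 and Lamc1 and 0.51 for Dcn and Lum. Without the 2 farthest mice it became 0.33 for Col1a1 and Col4a1, 0.51 for Col6a1 and Col6a2, -0.12 for Lamb2 and Lamc1 and 0.38 for Lamc1 and Nid1. With Cy5 alone it became 0.24 for Col1a1 and Col1a2, -0.096 for Col1a1 and Col3a1, 0.16 for Col1a1 and Sparc, -0.053 for Col1a1 and Col4a1, 0.52 for Lamb2 and Lamc1 and 0.24 for Lamc1 and Nid1. The cause was not tested. Group and array position cannot be told apart, and without a dye swap a dye effect common to all arrays cancels only between groups.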

Other observations

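A pair of endothelial markers, Cldn5 and Icam2, had lower p-values in cHF+F against cHF than any matrix gene, although no marker passed an adjusted p of 0.05 in limma. Cldn5, the tight-junction claudin of endothelium, was at 0.03 ± 0.21 (SD, n = 8) in cHF, -0.62 ± 0.40 in cHF+F and -0.39 ± 0.22 in cHF+ROSI. Its change was -0.65 (SE 0.13; adjusted p = 0.121 in limma) in cHF+F and -0.42 (SE 0.13; adjusted p = 0.996 in limma) in cHF+ROSI against cHF. Icam2, an endothelial adhesion molecule, was at 0.07 ± 0.09 (SD, n = 8) in cHF and -0.17 ± 0.07 in cHF+F, a change of -0.25 (SE 0.05; adjusted p = 0.0774 in limma). Of 10 macrophage markers 10 were lower in cHF+F than in cHF, where 53.2% of all genes were lower. An unadjusted p was passed by 3 of them, where 7.38% of all genes passed. These were the complement gene C1qc at -0.33 (SE 0.12), Csf1r at -0.22 (SE 0.10) and Cd14 at -0.18 (SE 0.07). The macrophage mean per mouse overlapped between the groups, from -0.20 to 0.27 in cHF and from -0.59 to 0.17 in cHF+F.

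Outside these, the markers past an unadjusted p in cHF+F against cHF were Lum and Kcnj8, a pericyte potassium channel, the latter at -0.21 (SE 0.09). Tendon markers (9 of 10 bright) had medians of -0.0054 and -0.024, and the 9 adipocyte markers on the array medians of -0.092 and 0.010, in cHF+F and cHF+ROSI against cHF. All 9 bright Schwann cell markers were higher in cHF+ROSI than in cHF (median 0.25), where 55.3% of all genes were lower. All 11 fast-fibre markers were higher in cHF+F than in cHF+ROSI (median 0.20), where 48.5% of all genes were lower. None of either list passed an unadjusted p. The Schwann mean per mouse overlapped, from -0.60 to 0.69 in cHF (median -0.34) and -0.35 to 0.81 in cHF+ROSI (median -0.010). It was highest in cHF+ROSI replicates 6 (0.81) and 1 (0.66). The fast-fibre mean was lowest in cHF+ROSI replicate 3 (-0.91), the array on which the 320 brightest probes had a median log2 ratio of -0.70. Its part in the fast-fibre values was not tested. These lists hold genes that neighbouring cell types also express, and Lum is both a fibroblast marker and a matrix gene here.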
